A study of Mus musculus with 24 samples.

Results

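The genes described here encode 4 families of enzymes that oxidise or hydrolyse alcohols, aldehydes, amines and esters. They were taken by symbol, as every gene whose name starts with Aldh (aldehyde dehydrogenases), Adh (alcohol dehydrogenases), Fmo (flavin-containing monooxygenases) or Ces (carboxylesterases) followed by a digit, leaving out Aldh1l1. This gave 54 of the 27179 genes measured, of which 20 were aldehyde dehydrogenases, 7 alcohol dehydrogenases, 7 monooxygenases and 20 carboxylesterases. The rule used names and no measured value, but it was chosen with earlier results of these data known. All 54 had a mean log2 level of at least 0 and were tested, among 25680 genes in all.

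Chromatin carrying trimethylated lysine 4 of histone H3 (H3K4m3) was immunoprecipitated from brain, heart, kidney and liver of mice and sequenced. Each organ was either flash frozen (Frozen) or fixed in formalin and embedded in paraffin (FFPE), and the labels name no strain, age, genotype or treatment beyond this. The values came as 1 column, called a library below, for each of the 8 combinations, so that an organ had 2 libraries and a preservation type 4. The columns name neither the antibody nor a replicate, and nothing states whether an FFPE column holds 1 FFPE sample of its organ or several merged.

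H3K4m3 lies at the promoters of active and poised genes. Alcohol dehydrogenases turn alcohols such as ethanol and retinol into aldehydes, and aldehyde dehydrogenases turn aldehydes into acids. Flavin-containing monooxygenases add oxygen to nitrogen and sulfur atoms of amines, drugs and dietary compounds, and carboxylesterases split esters of drugs and lipids. Hepatocytes are known for high amounts of many of these enzymes, and kidney tubules for some of them.

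Members had few reads. The number per member and library ranged from 3 to 461 with a median of 64.5, in libraries of 1792394 reads (frozen heart) to 5275085 reads (FFPE kidney). For every organ the FFPE column held more reads. Several reads can come from 1 amplified molecule, so counting error is the least error that such values have. The members took 0.222% of the reads in frozen liver and 0.203% in FFPE liver, against 0.0897% to 0.131% in the other 6 libraries. Of the 5 marker genes of each organ, 4 passed as higher in brain, 3 in heart, 4 in kidney and 5 in liver, so that each organ carried markers of its label. The liver markers summed to 680.5 in frozen liver and 212.3 in FFPE liver in CPM (the deposited scale without the log, reads scaled to a common library size), and to between 57.85 and 142.8 elsewhere. A difference between organs can come from more cells of a type or from more signal per cell, which cannot be told apart in whole tissue.

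Promoter sequence was at hand for 39 of the 54 members, as windows of 300 bases around the start of a transcript in RefSeq (build GRCm38.p6, the assembly that mm10 denotes). Most of these windows held few CG dinucleotides (CpG), the sites at which DNA can be methylated. Fewer than 10 CpG were found in 31 of the 39 (79.5%), against 43.1% of the windows of 18321 tested genes. The 6 stretches below are the 250 bases before that transcript start for members on which the results turn. The first 4 belong to genes with a large liver difference (Ces3b at chr8:105083505-105083754, plus strand, Ces1c at chr8:93131284-93131533, minus strand, Adh1 at chr3:138277335-138277584, plus strand, and Aldh8a1 at chr10:21377050-21377299, plus strand). The last 2 belong to aldehyde dehydrogenases that were lower in FFPE tissue (Aldh9a1 at chr1:167349741-167349990, plus strand, and Aldh5a1 at chr13:24937662-24937911, minus strand). Capitals mark CpG, and each line reads 5′ to 3′ along the gene.
Ces3b: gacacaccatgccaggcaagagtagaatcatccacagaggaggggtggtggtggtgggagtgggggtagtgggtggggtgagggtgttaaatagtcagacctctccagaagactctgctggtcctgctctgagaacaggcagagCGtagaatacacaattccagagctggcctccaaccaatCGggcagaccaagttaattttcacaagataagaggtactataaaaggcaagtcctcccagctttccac
Ces1c: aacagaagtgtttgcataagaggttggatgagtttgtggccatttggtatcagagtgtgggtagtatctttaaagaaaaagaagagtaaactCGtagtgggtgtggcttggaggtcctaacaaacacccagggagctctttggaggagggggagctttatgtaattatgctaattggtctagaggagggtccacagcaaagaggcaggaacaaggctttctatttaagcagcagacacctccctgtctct
Adh1: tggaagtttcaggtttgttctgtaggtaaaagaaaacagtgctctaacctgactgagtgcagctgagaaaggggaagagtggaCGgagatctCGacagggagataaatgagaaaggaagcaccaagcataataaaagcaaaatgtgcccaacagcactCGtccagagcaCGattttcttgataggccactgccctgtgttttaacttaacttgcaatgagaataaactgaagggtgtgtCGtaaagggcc
Aldh8a1: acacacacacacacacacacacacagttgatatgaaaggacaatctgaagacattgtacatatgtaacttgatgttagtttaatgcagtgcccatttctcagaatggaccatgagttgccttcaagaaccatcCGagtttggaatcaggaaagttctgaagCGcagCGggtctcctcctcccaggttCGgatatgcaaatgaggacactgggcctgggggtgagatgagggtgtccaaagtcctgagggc
Aldh9a1: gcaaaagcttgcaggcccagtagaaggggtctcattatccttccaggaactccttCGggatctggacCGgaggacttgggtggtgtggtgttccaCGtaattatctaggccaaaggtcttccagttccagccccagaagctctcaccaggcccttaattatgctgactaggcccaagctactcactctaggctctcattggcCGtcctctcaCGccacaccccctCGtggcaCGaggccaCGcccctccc
Aldh5a1: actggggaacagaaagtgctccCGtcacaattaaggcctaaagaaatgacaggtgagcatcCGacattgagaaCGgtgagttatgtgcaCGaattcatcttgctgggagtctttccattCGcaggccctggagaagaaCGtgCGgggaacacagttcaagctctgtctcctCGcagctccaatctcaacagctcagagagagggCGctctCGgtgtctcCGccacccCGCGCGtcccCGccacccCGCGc

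The stretches held 2 CpG in Ces3b, 1 in Ces1c, 5 in Adh1 and 4 in Aldh8a1, and 8 in Aldh9a1 and 17 in Aldh5a1. Ces3b had the letters TATAAA 30 bases before the transcript start of its window. For Ces3b and Aldh9a1 that start lies inside the RefSeq gene span, which begins at 105083733 and 167349963.

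Liver was the organ with the highest mean level for 38 of the 54 members (70.4%), against 29.3% of all tested genes. This held for 17 of 20 carboxylesterases, 6 of 7 alcohol dehydrogenases and 13 of 20 aldehyde dehydrogenases, but for 2 of 7 monooxygenases. The lowest mean level was in brain for 26 members, in heart for 18, in liver for 6 and in kidney for 4. Of all tested genes, 27.3% were lowest in brain, 26.5% in heart, 29.2% in liver and 17% in kidney. The map of levels by library shows the same order, with the strongest colours in frozen liver and paler ones in FFPE liver.

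**Figure D1:**
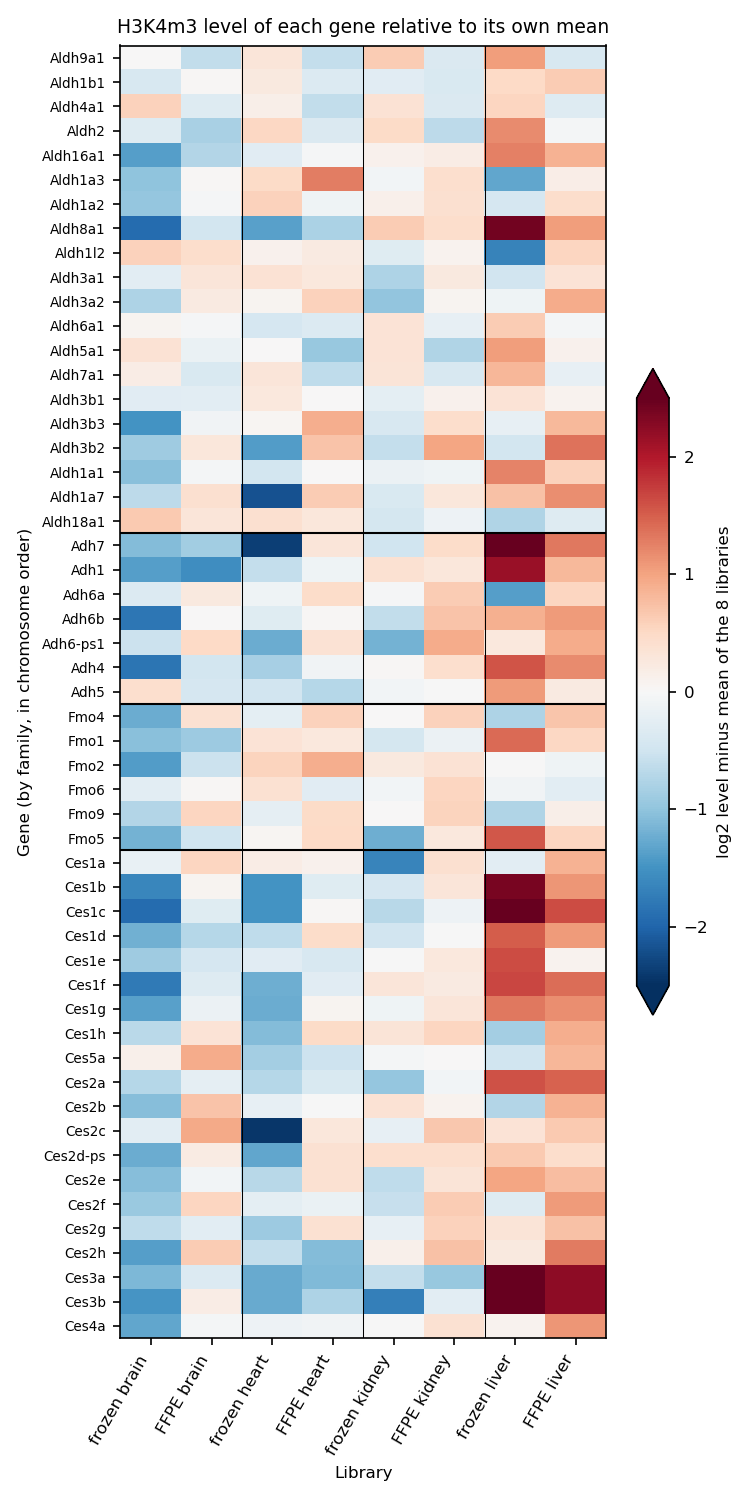
Log2 level of each of 53 of the 54 genes in each of the 8 libraries, less the gene's own mean over the 8 libraries (colour, cut at 2.5 in both directions), with the genes in rows by family and the libraries in columns by organ. The 2 liver columns are red for most carboxylesterases and alcohol dehydrogenases, and the frozen columns are more strongly coloured than the FFPE columns.

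Against the mean of the other 3 organs, 19 of the 54 members were higher in liver (limma, adjusted p under 0.05 over all 25680 genes) and 0 were lower, where 5.13% of all tested genes passed as higher and 4.84% as lower. The median difference of the members was 0.75 on the log2 scale, against -0.01 for all tested genes, and 45 of the 54 differences were above 0. With limma, 27 members higher and 2 lower had an unadjusted p under 0.05, against 22.1% of all tested genes in either direction. Nothing in the labels assigns the libraries to separate animals, so the p-values measure only how these libraries vary, which may be technical variation. The count was 2 without frozen liver, when Ces3a and Ces3b still passed, and between 15 and 23 without any other library. With 1 common estimate of the spread in place of the trend with level, 0 of the members and 0 of all tested genes passed with limma, and 29 members had an unadjusted p under 0.05.

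Carboxylesterases made up 9 of the 19, and all 20 of them had a difference above 0, with a median of 1.09. Ces3a, a carboxylesterase of the endoplasmic reticulum that is typical of liver (gene ID 382053, GRCm38 chromosome 8, 105048576 to 105061928), had log2 levels of 7.23 in frozen and 6.30 in FFPE liver. Its levels were 2.94 and 3.72 in frozen and FFPE brain, 2.82 and 2.97 in heart, and 3.47 and 3.12 in kidney. Both liver libraries lay far above the other 6, which were close together. Ces3a was 12.1-fold higher in liver, a log2 difference of 3.59 ± 0.35 (SE, 2 liver and 6 other libraries, limma adjusted p = 0.000114), the largest difference of any member.

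Ces3b, its neighbour on chromosome 8 (gene ID 13909, 105083733 to 105093929), reached 7.01 in frozen and 6.18 in FFPE liver. It lay at 2.49 and 4.15 in frozen and FFPE brain, 2.70 and 3.18 in heart, and 2.24 and 3.70 in kidney. Both liver libraries lay above all 6 others, of which FFPE brain was the highest. The gene was 11.5-fold higher in liver (3.52 ± 0.43, limma adjusted p = 0.000301).

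Ces1c, which encodes an esterase secreted into mouse plasma (gene ID 13884, chromosome 8, 93099015 to 93131283), had 6.64 in frozen and 5.37 in FFPE liver. The frozen libraries of brain, heart and kidney had 1.82, 2.26 and 3.06, and the FFPE libraries 3.45, 3.77 and 3.62. In each preservation type liver was the highest, with a wider gap in frozen tissue. Ces1c was 8.05-fold higher (3.01 ± 0.48, limma adjusted p = 0.00156).

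The other 6 carboxylesterases that passed were Ces1b (5-fold higher), Ces1f (4.12-fold), Ces2a (4.1-fold), Ces1d (3.29-fold), Ces1g (3.15-fold) and Ces2e (2.25-fold). Ces1d is known as a triacylglycerol hydrolase of liver and fat. In each of the 9 genes both liver libraries lay above all 6 others. Ces2e passed only narrowly, with an adjusted p of 0.0477, and lost the call under 10 of 13 alternative analyses.

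The carboxylesterase genes lie in 2 clusters on chromosome 8. The first, of Ces1a to Ces1h and Ces5a, spans 515.7 kb with 9 members, of which 5 passed as higher in liver. The second, of Ces2a to Ces2h, Ces3a, Ces3b and Ces4a, spans 416.1 kb with 11 members, of which 4 passed. Genes side by side differed: Ces1b to Ces1d were 3.29-fold to 8.05-fold higher, while Ces1a, next to Ces1b, had a difference of 0.41 ± 0.45, and Ces1h and Ces5a at the other end had 0.05 ± 0.41 and 0.22 ± 0.42. The differences between neighbours were not tested. These genes arose by duplication and resemble each other, and the treatment of reads matching several copies is not stated, so values of single copies are uncertain.

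**Figure D2:**
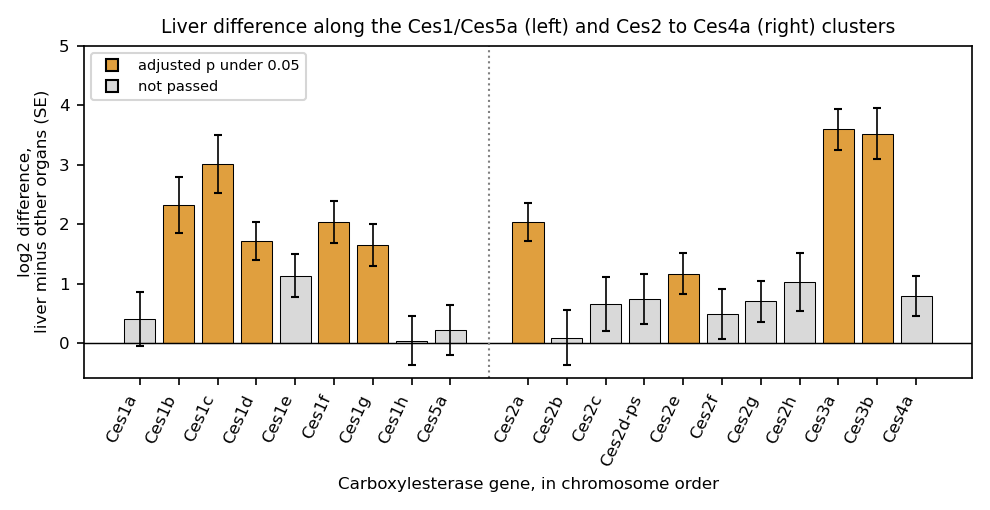
Log2 difference of liver from the mean of the other organs (bars, with SE over the 8 libraries) for the 20 carboxylesterase genes in their order along chromosome 8, with the cluster of Ces1 genes and Ces5a left of the dotted line and that of Ces2 to Ces4a right of it. Ces3a and Ces3b stand highest at 3.59 and 3.52, and filled bars of genes that passed alternate with grey bars of genes that did not.

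Of the 7 alcohol dehydrogenases, all in 1 cluster of 257.4 kb on chromosome 3, 3 passed as higher in liver. Adh7, known for oxidising retinol and ethanol in epithelia (gene ID 11529, 138198064 to 138232042), had 6.95 in frozen and 5.55 in FFPE liver. The other frozen libraries had 3.16 in brain, 1.88 in heart and 3.73 in kidney, and the FFPE ones 3.37, 4.53 and 4.70. The FFPE liver library was less than 1 above FFPE kidney, while the frozen liver library was over 3 above frozen kidney. Adh7 was 6.44-fold higher in liver over both types (2.69 ± 0.53, limma adjusted p = 0.00512). It overlaps a noncoding gene, 0610031O16Rik, so reads of the pair may not have been separated.

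Adh1, the class I enzyme that clears most ethanol in liver (gene ID 11522, 138277585 to 138290698), had 6.55 in frozen and 5.20 in FFPE liver. It stood at 4.77 and 4.68 in frozen and FFPE kidney, 3.79 and 4.28 in heart, and 3.02 and 2.83 in brain. The 4 organs fell into an order without overlap, from liver over kidney and heart to brain. Adh1 was 3.95-fold higher in liver (1.98 ± 0.33, limma adjusted p = 0.00201).

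Adh4, the class II enzyme (gene ID 26876, 138415456 to 138432683), had 4.83 in frozen and 4.45 in FFPE liver. Its level was 3.28 and 3.68 in frozen and FFPE kidney, 2.42 and 3.18 in heart, and 1.43 and 2.79 in brain. It was 3.59-fold higher in liver (1.84 ± 0.42, limma adjusted p = 0.013). Adh5, which handles formaldehyde bound to glutathione in all tissues, was 1.8-fold higher but did not pass (adjusted p = 0.0543). Adh6a, Adh6b and the pseudogene Adh6-ps1 differed by -0.56 ± 0.45, 1.30 ± 0.46 and 0.78 ± 0.43 and did not pass either.

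Among aldehyde dehydrogenases 5 of 20 passed as higher in liver. Aldh8a1, an enzyme of tryptophan breakdown (gene ID 237320, chromosome 10, 21377300 to 21396578), had 6.47 in frozen and 5.11 in FFPE liver. Kidney came next with 4.70 and 4.49, while heart had 2.70 and 3.27 and brain 2.13 and 3.59. Liver and kidney both stood apart from brain and heart. Aldh8a1 was 4.95-fold higher in liver (2.31 ± 0.43, limma adjusted p = 0.00401).

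Aldh16a1 (gene ID 69748, chromosome 7, 45141833 to 45154536) had 6.49 in frozen and 6.09 in FFPE liver, against 5.34 and 5.40 in kidney, 4.94 and 5.18 in heart, and 3.84 and 4.49 in brain. It was 2.68-fold higher in liver (1.42 ± 0.23, limma adjusted p = 0.00179). It overlaps Pih1d1 in RefSeq, so reads of the pair may not have been separated. Aldh1a1, which makes retinoic acid from retinal (gene ID 11668, chromosome 19, 20492583 to 20643463), had 5.32 in frozen and 4.64 in FFPE liver and between 3.02 (frozen brain) and 4.09 (FFPE heart) in the others. It was 2.31-fold higher (1.21 ± 0.35, limma adjusted p = 0.0411), a call lost under 9 of 13 alternative analyses. Aldh1a1 overlaps the noncoding genes E030003E18Rik and C730002L08Rik and the pseudogene Gm6684.

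Aldh2, the mitochondrial enzyme that removes the acetaldehyde made from ethanol, was 1.68-fold higher (0.75 ± 0.19, limma adjusted p = 0.0242), and Aldh5a1, which degrades succinic semialdehyde from the transmitter GABA, 1.7-fold higher (0.77 ± 0.17, adjusted p = 0.0113). Their liver libraries overlapped those of other organs, since frozen and FFPE libraries differed by as much as organs did. In RefSeq Aldh5a1 overlaps the noncoding genes 4932702P03Rik and 9330162012Rik. The lowest 3 differences of the family were those of Aldh1l2 (-0.76 ± 0.36), Aldh1a3 (-0.75 ± 0.29) and Aldh18a1 (-0.72 ± 0.23), and none of the 3 passed.

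Monooxygenases were divided. Fmo5, the member that can insert oxygen into ketones (gene ID 14263, chromosome 3, 97609938 to 97655287), had 7.23 in frozen and 6.21 in FFPE liver. Heart followed with 5.72 and 6.18, kidney with 4.45 and 5.94, and brain with 4.50 and 5.19. FFPE liver and FFPE heart were almost equal. The gene was 2.62-fold higher in liver (1.39 ± 0.33, limma adjusted p = 0.0162) and overlaps Chd1l. Fmo1, a broad oxidase of amines and sulfides (gene ID 14261, chromosome 1, 162829561 to 162866610), had 6.22 and 5.31 in frozen and FFPE liver, 5.14 and 5.05 in heart, 4.36 and 4.65 in kidney, and 3.76 and 3.90 in brain. It was 2.45-fold higher in liver (1.29 ± 0.27, limma adjusted p = 0.00756). No other gene of the family passed, and Fmo2, Fmo4, Fmo6 and Fmo9 differed by between -0.41 and -0.05.

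**Figure D3:**
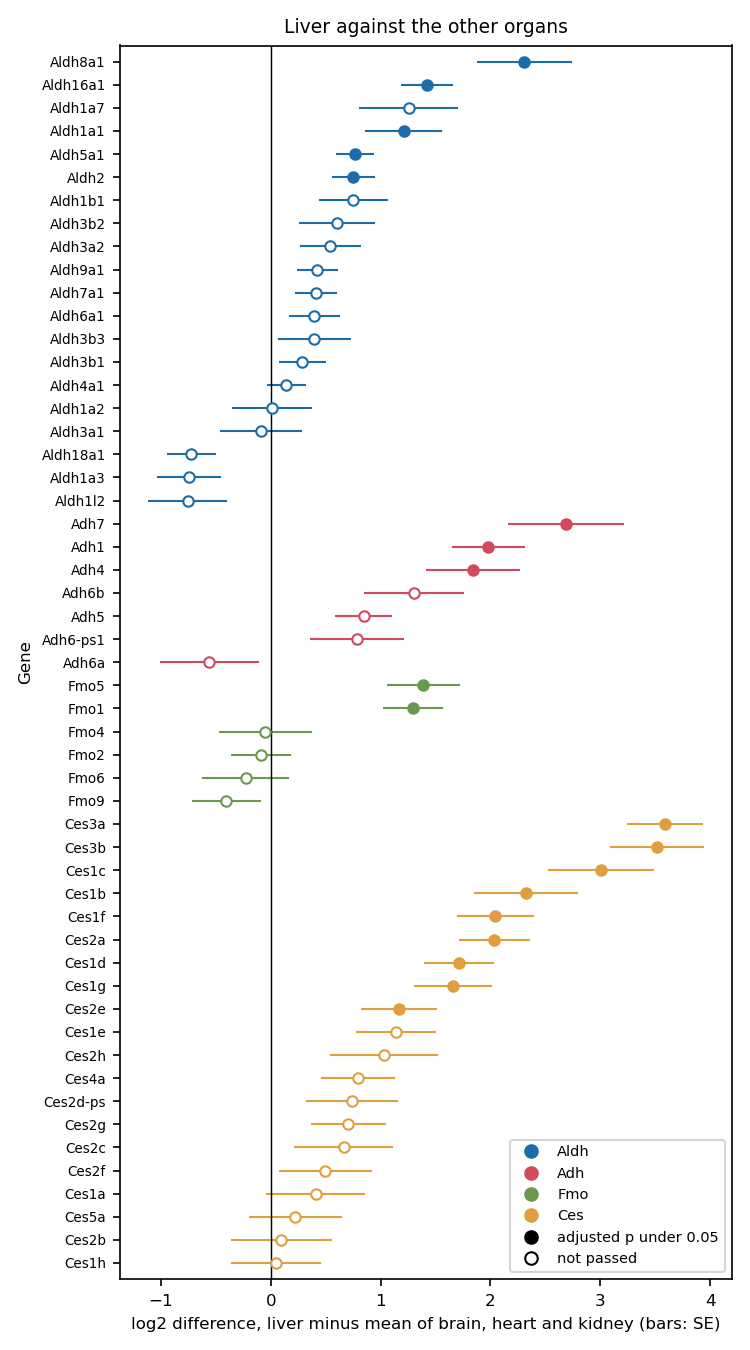
Log2 difference of liver from the mean of brain, heart and kidney (points, bars are SE over the 8 libraries) for 53 of the 54 genes, sorted within the 4 families, with filled points for the 19 genes with an adjusted p under 0.05. All 20 carboxylesterases lie right of 0, and monooxygenases lie on both sides.

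Other enzymes of the same pathways were counted from lists drawn up by function, with earlier results of these data known. Of all tested genes, 5.13% passed as higher in liver and 4.84% as lower. Of 22 tested retinoid genes, 6 were higher in liver, among them Rdh7, a retinol dehydrogenase (19.6-fold), and Rbp4, the plasma carrier of retinol (9.36-fold). Of 28 other carbonyl and amine oxidoreductases 7 were higher, led by the aldo-keto reductases Akr1c6 (7.41-fold) and Akr1c13 (4.07-fold). Of 18 other ester and epoxide hydrolases 7 were higher, with the smallest p for Ephx2, an epoxide hydrolase (2.72-fold), and Lipc, hepatic lipase (4.27-fold). Of 16 enzymes that act next to single aldehyde dehydrogenases 6 were higher, among them Haao of tryptophan breakdown (4.82-fold), the pathway of Aldh8a1, and Prodh2 of hydroxyproline breakdown (10.3-fold). No member of the 4 lists was lower in liver, and their medians were 0.16, 0.49, 0.48 and 0.66, all above the -0.01 of all tested genes.

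Frozen and FFPE tissue share no library, so the liver difference could be read in each. The median of the members was 0.83 in frozen and 0.57 in FFPE tissue, that of carboxylesterases 1.58 and 0.88, and that of alcohol dehydrogenases 1.79 and 0.82. Aldehyde dehydrogenases had 0.53 and 0.37, and monooxygenases 0.18 and 0.17. Liver lay above the mean of the other organs in both types for 41 of the 54 members (75.9%), against 30.5% of all tested genes, and below it in both for 4. Ces3b had 4.53 in frozen and 2.51 in FFPE tissue and Adh7 4.03 and 1.35. Ces3a kept more of its frozen difference, with 4.15 and 3.03. The liver markers were also lower in FFPE liver, as given above, and 3 of the 5 passed as having a smaller liver difference in FFPE tissue. The part of this in the values of the members was not tested.

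**Figure D4:**
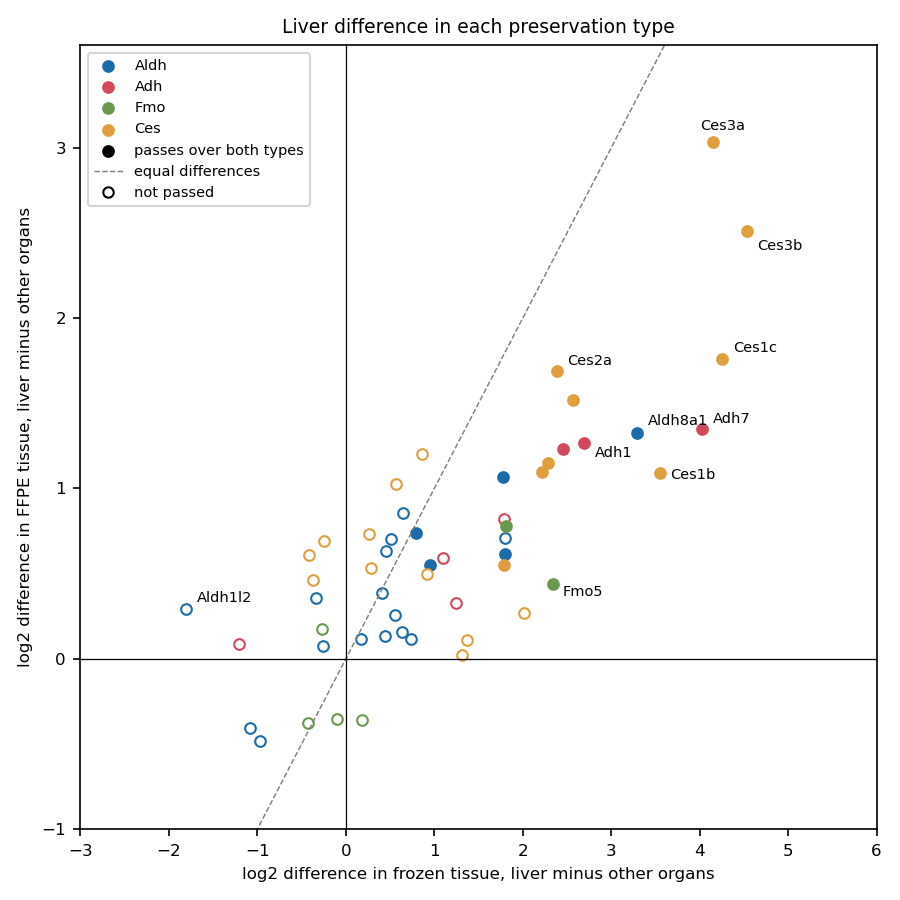
Log2 difference of liver from the mean of the other 3 organs in frozen tissue (horizontal axis) and in FFPE tissue (vertical axis) for 53 of the 54 genes, coloured by family, with filled points for genes that passed over both types. Most genes lie in the upper right, where both differences are above 0, and all filled points lie below the dashed line of equal differences.

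Whether the liver difference itself changed with preservation was tested with a term for FFPE liver. Of the 54 members 1 was higher (Aldh1l2) and 1 lower (Fmo5) in FFPE than in frozen tissue, where 0.611% and 0.432% of all tested genes passed, and the median of the members was -0.45. Aldh1l2, a mitochondrial enzyme that oxidises formyl groups carried by folate, had 3.26 in frozen liver and 5.49 in FFPE liver. Its other libraries lay close together, at 5.52 and 5.38 in frozen and FFPE brain, 5.05 and 5.17 in heart, and 4.65 and 5.04 in kidney, so that frozen liver alone was low. The difference was 2.10 ± 0.41 (limma adjusted p = 0.0294). It overlaps a noncoding gene, Gm51778. For Fmo5 the liver difference was 2.34 in frozen and 0.44 in FFPE tissue, which is -1.90 ± 0.39 (limma adjusted p = 0.0361). Neither passed after quantile normalization, without the filter on low levels or without the trend, and Aldh1l2 did not pass without either brain library. The count of lower members was 2 without either brain library and 6 without either heart library. Ces1b, Ces1c and Adh7 had larger values, of -2.46 ± 0.64, -2.49 ± 0.65 and -2.68 ± 0.73, but with adjusted p-values of 0.0762, 0.0774 and 0.0861.

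Kidney is the organ besides liver in which several of these enzymes are known to work. Against the mean of the other organs, 0 of 54 members passed in kidney in either direction, where 0.802% of all tested genes were higher and 0.405% lower. With limma 3 members had an unadjusted p under 0.05, against 9.66% of all tested genes, and the median was 0.01. After quantile normalization 1 member passed as lower, and 2 did without FFPE liver. The smallest adjusted p-values by family were 0.224 for Ces3b, at -1.31 ± 0.43, 0.497 for Aldh3a2, a fatty aldehyde dehydrogenase, at -0.61 ± 0.28, 0.6 for Fmo5, at -0.65 ± 0.33, and 0.793 for Adh1, at 0.45 ± 0.33. Aldh3a2 had 3.34 and 4.41 in frozen and FFPE kidney, 4.22 and 5.25 in liver, 4.40 and 4.90 in heart, and 3.57 and 4.56 in brain, so that the kidney libraries overlapped the others.

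Set directly against kidney, liver was higher at 5 members and lower at 0, against 1.81% and 1.5% of all tested genes. With limma, 21 members higher and 0 lower had an unadjusted p under 0.05, against 14.1% of all tested genes in either direction. This comparison and the ones before and after share the liver and kidney libraries. All 5 were carboxylesterases: Ces3b (12.3-fold, 3.62 ± 0.52), Ces3a (11.1-fold, 3.47 ± 0.43), Ces1c (6.35-fold, 2.67 ± 0.59), Ces2a (4.12-fold, 2.04 ± 0.40) and Ces1d (2.89-fold, 1.53 ± 0.39), with limma adjusted p-values between 0.0013 and 0.0473. Adh1, Adh4 and Aldh8a1 did not pass here, and the median over all members was 0.57. The count was 1 without frozen kidney, 2 without frozen liver and 19 without FFPE liver, and 10 after quantile normalization.

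With liver and kidney set together against brain and heart, 13 members were higher and 1 lower, against 4.09% and 4.67% of all tested genes. They were 3 alcohol dehydrogenases (Adh7, Adh1 and Adh4), 2 aldehyde dehydrogenases (Aldh8a1 and Aldh16a1) and 8 carboxylesterases (Ces3a, Ces3b, Ces2a, Ces1b, Ces1c, Ces1d, Ces1f and Ces1g). Aldh8a1 had the largest difference, at 4.82-fold (2.27 ± 0.38, limma adjusted p = 0.00205). Adh1 was 3.54-fold higher (1.82 ± 0.29, adjusted p = 0.00155) and Ces1f 3.49-fold (1.80 ± 0.30, adjusted p = 0.00233). Ces1f had 5.93 and 5.65 in frozen and FFPE liver, 4.57 and 4.49 in kidney, 3.03 and 3.98 in heart, and 2.49 and 3.93 in brain, and both kidney libraries lay above those of heart and brain. For Ces3a the mean level was 3.29 in kidney, 3.33 in brain and 2.89 in heart, and for Ces3b 2.97, 3.32 and 2.94, so that kidney lay between brain and heart in both.

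The member that was lower in this comparison was Aldh18a1, which makes the precursor of proline from glutamate (gene ID 56454, chromosome 19, 40550257 to 40588463). It had 5.89 and 5.54 in frozen and FFPE brain and 5.63 and 5.51 in heart, but 4.79 and 5.11 in kidney and 4.47 and 4.91 in liver. The 4 libraries of brain and heart lay above the 4 of kidney and liver, with a difference of -0.82 ± 0.20 (limma adjusted p = 0.0177). Without one of frozen brain, frozen heart, FFPE kidney and frozen kidney, or with precision weights, the call was lost. The count of higher members was 5 without frozen brain, frozen heart or frozen liver, 6 without FFPE kidney or with precision weights, 7 without frozen kidney and 22 without FFPE liver.

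In brain 10 of 54 members were lower than the mean of heart, kidney and liver and 0 were higher, where 4.53% of all tested genes passed as lower and 5.53% as higher. With limma, 22 members lower and 1 higher had an unadjusted p under 0.05, against 20.5% of all tested genes in either direction. The median was -0.58, and 44 of 54 differences were below 0. The mean that brain was set against includes liver, where many of these genes were high, so that a low value in brain need not set it apart from heart or kidney. Of the 5 endothelial markers 3 were also lower in brain and 0 higher (Kdr and Pecam1 at -1.16 each and Tek at -0.84), and they summed to 109.5 CPM in frozen and 141.6 in FFPE brain against 136.3 to 459.2 elsewhere. Their part in the members' values was not tested. The 10 were Adh1 (-1.96 ± 0.33, limma adjusted p = 0.00148), Aldh8a1 (-1.60 ± 0.43), Adh4 (-1.53 ± 0.42), Aldh16a1 (-1.41 ± 0.23), Ces1f (-1.40 ± 0.35), Fmo1 (-1.30 ± 0.27), Fmo2 (-1.29 ± 0.27), Ces1d (-1.28 ± 0.32), Fmo5 (-1.11 ± 0.33) and Aldh2 (-0.75 ± 0.19). For Adh1, Aldh16a1, Ces1d, Fmo1 and Fmo2 both brain libraries lay below all 6 others. The call was lost under 10 of 13 alternative analyses for Adh4, 8 for Fmo5 and 6 for Aldh8a1. It was lost under 5 for Aldh2, Ces1d and Ces1f, and under 2 for Adh1, Aldh16a1, Fmo1 and Fmo2.

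Fmo2, the main monooxygenase of lung in many mammals (gene ID 55990, chromosome 1, 162874317 to 162898758), differed from the rest of this group in that liver was not its highest organ. It had 5.12 and 5.47 in frozen and FFPE heart, 4.82 and 4.92 in kidney, 4.55 and 4.45 in liver, and 3.16 and 4.04 in brain. Ces1d had 3.09 and 3.59 in frozen and FFPE brain, 3.67 and 4.76 in heart, 3.83 and 4.29 in kidney, and 5.82 and 5.36 in liver. Aldh2 had 5.66 and 5.18 in frozen and FFPE brain, 6.51 and 5.63 in heart, 6.47 and 5.33 in kidney, and 7.16 and 5.93 in liver, and within each preservation type brain was its lowest organ. Of the 16 tested genes that act next to aldehyde dehydrogenases, 2 were higher and 2 lower in brain, against 5.53% and 4.53% of all tested genes. Gad1 and Gad2, which make GABA in neurons, were 2.05-fold and 2.07-fold higher. Prodh, which starts proline breakdown, differed by -0.77 and Haao, of tryptophan breakdown, by -1.51. Aldh5a1, which degrades succinic semialdehyde from GABA, had a brain difference of 0.13 ± 0.17 and did not pass.

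The brain count rested on single libraries. It was 0 without frozen brain, 4 without FFPE heart, 6 without frozen kidney and 21 without FFPE liver, and 5 with precision weights. The median of the members was -0.80 among frozen and -0.30 among FFPE libraries, and 35 of 54 members lay below the other organs in both, against 32.8% of all tested genes.

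In heart 1 member was higher and 1 lower, against 1.72% and 0.853% of all tested genes. Aldh1a3, which makes retinoic acid (gene ID 56847, chromosome 7, 66390892 to 66427477), had 4.77 and 5.58 in frozen and FFPE heart. It had 4.23 and 4.71 in kidney, 3.29 and 4.32 in brain, and 3.01 and 4.46 in liver. Both heart libraries lay above the 6 others, by little in frozen heart, and the gene was 2.26-fold higher (1.18 ± 0.29, limma adjusted p = 0.0484). Ces3a was lower in heart, at -1.57 ± 0.35 (adjusted p = 0.0304), but its heart libraries overlapped those of brain and kidney, and liver, where it was high, is part of the mean.

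Fmo2 was 1.96-fold higher in heart with both libraries above all others but did not pass (0.97 ± 0.27, adjusted p = 0.0806). All 7 monooxygenases had a heart difference above 0, with a median of 0.37, and 19 of 20 carboxylesterases had one below 0, with a median of -0.67. Of all 25680 tested genes, 11870 had a heart difference above 0 and 13810 one below 0. The mean that heart was set against includes liver, where all 20 carboxylesterases had a difference above 0. A heart value below 0 therefore need not set heart apart from brain or kidney. Of the alcohol dehydrogenases, Adh5 had the smallest p, at -0.79 ± 0.26 with an adjusted p of 0.143. It had 4.32 and 4.09 in frozen and FFPE heart, 5.22 and 4.39 in brain, 4.72 and 4.79 in kidney, and 5.85 and 5.01 in liver. Both heart libraries lay below all others. Endothelial markers, of which 4 of 5 were higher in heart, summed to 355.3 CPM in frozen and 459.2 in FFPE heart and to between 109.5 and 232.3 elsewhere. Of the 5 fibroblast markers 2 were higher in heart (Dcn 3.04-fold and Lum 3.21-fold), with sums of 268.4 CPM in frozen and 241.2 in FFPE heart against 101.8 to 188.1 elsewhere. The part of either list in the values of Aldh1a3 and Fmo2 was not tested.

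The heart calls did not hold widely. Aldh1a3 passed without FFPE liver or frozen liver but not without any one of the other 6 libraries. The number of lower members was 0 without FFPE brain, without either heart library and without either kidney library, 2 without frozen brain or frozen liver, and 10 without FFPE liver. Both counts were 0 without the filter on low levels and with precision weights, and 2 higher and 4 lower members passed after quantile normalization.

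FFPE and frozen libraries of the same organs were compared over all 4 organs. Chromatin was prepared and sheared differently for the 2 tissue types, and which of the 2 named kit families served each sample is not stated. Preservation, preparation, kit and depth therefore cannot be told apart. Of the members 11 were higher and 5 lower in FFPE tissue, against 16.5% and 21.3% of all tested genes. The median was 0.59 against 0.18 for all tested genes, and after quantile normalization 0.22 against 0.02, with 8 members changing sign and 5 passing as higher. Differences below are on the deposited scale, and relative to the median of all tested genes each is lower by 0.18. Endothelial and blood cell markers were each higher in FFPE tissue for 3 of 5 genes and fibroblast markers for 1 of 5, and the part of this in the members' values was not tested.

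The 5 lower members were all aldehyde dehydrogenases. Of the 20 genes of this family 25% passed as lower and 25% as higher, against 21.3% and 16.5% of all tested genes. Aldh9a1, which acts in carnitine synthesis (gene ID 56752, chromosome 1, 167349963 to 167368530), had 6.34, 6.64, 6.97 and 7.38 in frozen brain, heart, kidney and liver. In the FFPE libraries of the same organs it had 5.71, 5.75, 5.97 and 5.93. All frozen values lay above all FFPE values. The difference was -0.995 ± 0.16 (SE, 4 FFPE and 4 frozen libraries, limma adjusted p = 0.0006). Aldh2 fell by 0.93 ± 0.17, Aldh5a1 by 0.88 ± 0.15, Aldh7a1, of lysine breakdown, by 0.81 ± 0.16, and Aldh4a1, of proline breakdown, by 0.80 ± 0.15. In each of the 5 the FFPE library was lower in all 4 organs. All 5 passed under each of 13 alternative analyses, with differences of between -0.55 and -0.42 after quantile normalization.

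The 11 higher members were Aldh3b2 (1.67 ± 0.30), Adh6-ps1 (1.35 ± 0.37), Ces2c (1.29 ± 0.39), Aldh1a7 (1.25 ± 0.39), Ces1h (1.13 ± 0.36), Fmo4 (1.12 ± 0.37), Ces2f (1.04 ± 0.37), Aldh3b3 (1.03 ± 0.29), Aldh1a3 (0.95 ± 0.25), Aldh3a2 (0.90 ± 0.24) and Fmo9 (0.85 ± 0.27). Only Aldh3b2 and Aldh1a3 passed under each of 13 alternative analyses. The call was lost under 2 of them for Aldh3a2, 3 for Adh6-ps1 and Aldh3b3, and 6 for Ces2c. It was lost under 7 for Aldh1a7, Ces1h and Fmo9, and under 8 for Ces2f and Fmo4. After quantile normalization only Aldh3b2, Aldh1a3 and Aldh3a2 of these still passed. Aldh3b2, an enzyme of fatty aldehydes (gene ID 621603, chromosome 19, 3972328 to 3981665), had 2.78, 2.26, 3.06 and 3.20 in frozen brain, heart, kidney and liver and 3.95, 4.37, 4.65 and 5.03 in FFPE tissue. No FFPE value overlapped a frozen one. Its adjusted p was 0.00111 with limma, and it overlaps Aldh3b3, which also passed.

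The pseudogene Adh6-ps1 had 2.59, 1.88, 1.94 and 3.38 in the frozen libraries of brain, heart, kidney and liver and 3.61, 3.48, 4.05 and 4.04 in the FFPE ones. Ces2c had 3.16, 0.98, 3.21 and 3.76 in the frozen libraries and 4.38, 3.70, 4.09 and 4.08 in the FFPE ones, where the value of frozen heart rests on 3 reads. Fmo9 had 3.23, 3.73, 3.96 and 3.20 in the frozen libraries and 4.49, 4.43, 4.51 and 4.10 in the FFPE ones. For Adh6-ps1 and Fmo9 each FFPE library lay above all 4 frozen ones, and for Ces2c FFPE heart lay below frozen liver. The count of higher members was 4 without either brain library and 6 without either kidney library.

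Levels of different genes can be compared per length of the gene. On that scale (mean log2 level over the 8 libraries, less log2 of the RefSeq span in kb), Aldh9a1 was highest at 2.12, followed by Aldh1b1 at 1.59, Aldh16a1 and Aldh5a1 at 1.55 each, and Aldh4a1 at 1.24. Aldh1a1, the longest member with a span of 150881 bases, was lowest at -3.17. Whether reads were counted over whole genes or near their starts is not stated. H3K4m3 lies mostly near the start, so long genes could come out low on this scale, which was not tested. Members with a higher level had a lower FFPE difference. Across the 54 members Pearson's r was -0.796 with the level and -0.487 with the level per kb, and across the 24248 tested genes with a RefSeq span it was -0.624 and -0.339. These values are across genes, which share the same 8 libraries and are not independent replicates.

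**Figure D5:**
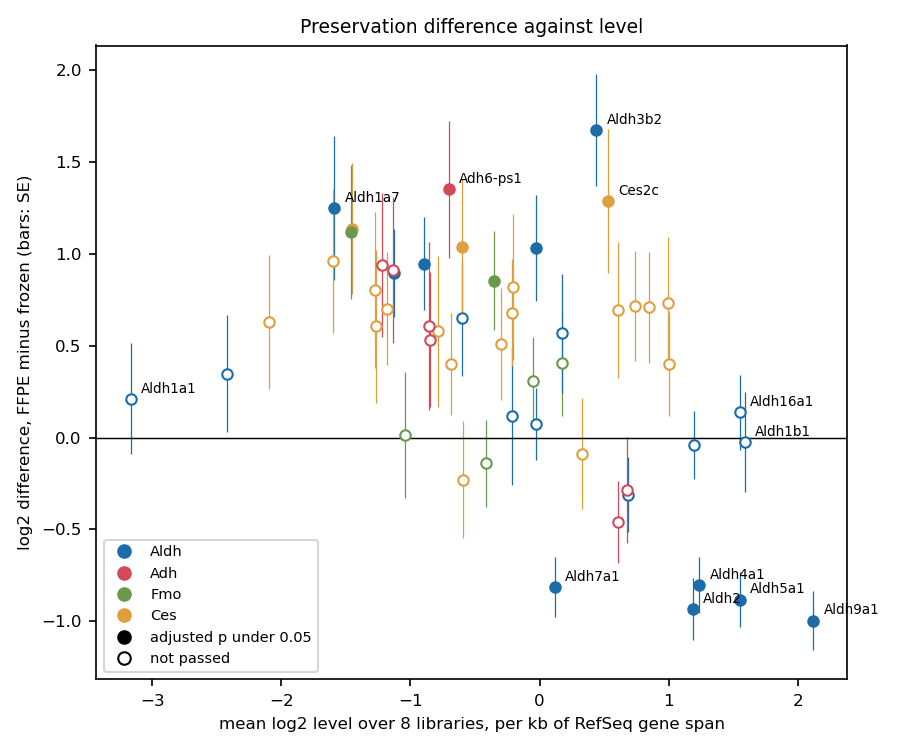
Log2 difference of FFPE from frozen tissue (vertical axis, bars are SE over the 8 libraries) against the mean log2 level per kb of RefSeq gene span (horizontal axis) for 53 of the 54 genes, coloured by family, with filled points for the 16 genes with an adjusted p under 0.05. The 5 aldehyde dehydrogenases that were lower in FFPE tissue lie lowest, at -0.80 and below, and the 11 higher genes lie above 0.8.

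The spread between members was smaller in FFPE tissue. The FFPE difference and the level come from the same libraries, so a smaller FFPE spread makes their r negative by itself. The negative r with the level is therefore not a separate result. The SD of the log2 level over the 54 members was 0.70 to 0.92 in the 4 FFPE libraries and 1.17 to 1.61 in the 4 frozen ones. Over all tested genes it was 1.59 to 1.77 and 2.10 to 2.34. The lowest member lay at 1.94 to 3.12 in FFPE libraries and at 0.98 to 1.56 in frozen ones, while the highest lay at 5.97 to 6.58 and 6.64 to 7.50.

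The promoter windows were set beside these values as a description. Members whose 300-base window held fewer than 10 CpG had a median FFPE difference of 0.63 (31 members), and those with 10 or more CpG one of 0.11 (8 members). Over all tested genes the medians were 0.66 and -0.30. Among the 14 liver-high members with a window, 11 held fewer than 10 CpG, a share close to that of all members with a window (31 of 39). The 3 with more were Fmo5 with 10, Aldh16a1 with 22 and Aldh5a1 with 24. The windows with the fewest were those of Ces1e with 0 and of Adh4, Ces1b, Ces1c and Ces2a with 1 each, while Aldh1a2 held 50. Across the 39 members Pearson's r between CpG number and the liver difference was -0.274, and across 18321 genes it was -0.004.

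Short motifs were searched on both strands of the 300-base windows, and matches are descriptions of letters, not of bound factors. TATAAA was found in 9 of 39 members (23.1%), against 14.2% of 27025 windows, and 4 of these 9 passed as higher in liver (Adh7, Ces1g, Ces3b and Fmo5). Of all 39 members with a window, 14 passed as higher in liver. GTTAATNAT, the motif of the liver factor HNF1, was found in Ces5a and Fmo6 (5.13% against 0.836%). CAAAGTCCA or CAAAGTTCA, for HNF4, was in 0 members (0.862% of all windows). TTGCNNCAA or TTGCNNAAT, for C/EBP, was in 5 members (12.8% against 4.46%), which were Aldh3b3, Aldh6a1, Ces4a, Fmo2 and Fmo6. None of the 14 liver-high members with a window held one of the last 3 motifs in it. Members without a window, among them Ces3a, Ces1d, Ces1f, Aldh2 and Fmo1, were not searched.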

How the data were processed

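The deposited table held normalized log2 values per gene for 8 columns, 1 per organ and preservation type. The authors aligned reads with Bowtie2 to mm10, counted them per gene with featureCounts and used limma, as far as these tools are named per the submitters' processing notes. No version, and no rule for the counted stretch of a gene, is stated. Each deposited log2 value could be written as reads plus 0.5, divided by a scaled library total, and whole reads were recovered to within 0.001 for 100% of values. Only relative levels were compared, and the 12 input samples of the labels were not used here.

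Differences were fitted on the log2 values with limma 3.58.1 in R 4.3.3 (moderated variances with a trend on intensity) over all 25680 genes with a mean log2 level of at least 0. The model held organ and preservation, with 3 residual degrees of freedom, or 2 with the added term for FFPE liver. With 1 library per combination, any departure from an equal preservation difference in all organs counts as spread. A gene passed at a Benjamini-Hochberg adjusted p under 0.05 over all tested genes, and the fit was tested on simulated data. There were 8 comparisons, and those of organs share libraries.

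The members, the 4 lists of related genes and the organ markers were chosen with earlier results of these data known. Values in every library are given for the members with the 3 largest differences of their family among those that passed in an organ comparison, and for the member with the smallest p of each family in each organ comparison and in FFPE against frozen. Of related genes, at most the 2 with the smallest p in a list and comparison were to be named. Gad1 and Haao fell outside this rule in brain and were named there after their values were seen. Alternatives were no low-value filter, quantile normalization, precision weights, an offset of 2 reads, no intensity trend and each library left out. Coordinates and promoter windows are from RefSeq, GRCm38.p6, in which all 54 members and 39 promoters were matched by gene ID. Protein sequences were not used here. Of the members 1 is not reported here by its own values, and it is counted in the totals but left out of the plots. In RefSeq 17 of the members overlap another gene, and strand was not given, so their reads may be shared.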

Additional observations from a re-analysis of the deposited data

Results flagged for a closer look

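The liver difference of 2 members changed with preservation in a test of that change. For Fmo5 it was 2.34 in frozen and 0.44 in FFPE tissue, a change of -1.90 (limma adjusted p = 0.0361, between 0.000932 and 0.369 over the alternatives). For Aldh1l2 it was -1.81 and 0.29, a change of 2.10 (limma adjusted p = 0.0294, between 0.00507 and 0.347 over the alternatives). Frozen liver gave 382 reads for Fmo5 and 24 for Aldh1l2, and FFPE liver 317 and 192. The residual spread behind both tests comes from the other 3 organs, with 1 liver library of each type.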

How the results depend on the processing

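No paired analysis was possible because the columns of the table carry no replicate number to pair on. The comparison of FFPE with frozen tissue held organ as a term, which matches the libraries by organ. Of the 68 single-gene results that passed, 0 reversed under any alternative. The calls held for 68 with an offset of 2 reads, 58 after quantile normalization, 56 without the low-value filter, 49 with precision weights and 14 without the intensity trend. Without the trend, 0 members passed as higher or lower in any comparison of organs, with 17 (brain), 12 (heart) and 29 (liver) at an unadjusted p under 0.05 with limma. In FFPE against frozen, 10 members then passed as higher and 5 as lower. The 10 did not include Aldh1a7 and Ces2c, which lost their calls. With precision weights 5 members were lower in brain, 0 higher and 0 lower in heart, 6 higher and 0 lower in liver and kidney, and 5 lower in the liver difference of FFPE against frozen. Quantile normalization gave 2 higher and 4 lower in heart, 1 lower in kidney, 1 lower in liver, 5 higher in FFPE, 10 higher in liver against kidney, and 0 either way in the liver difference between types. Without the low-value filter the counts were 0 in heart and 0 in the liver difference between types, in both directions. Leaving out each library in turn gave 0 to 2 higher and 0 to 21 lower members in brain, 0 to 2 higher and 0 to 10 lower in heart, and 0 to 2 lower in kidney. It gave 2 to 23 higher and 0 to 3 lower in liver, 4 to 16 higher in FFPE, 1 to 19 higher and 0 to 1 lower in liver against kidney, and 5 to 22 higher and 0 to 2 lower in liver and kidney together. For the liver difference between types it gave 0 to 1 higher and 1 to 6 lower. Where the lone library of an organ remained, it was taken to vary like the others. The cause of these changes was not tested. Precision weights moved the share of higher calls over all genes in heart from 66.9% to 91.6%, in kidney from 66.5% to 84.3% and in liver from 51.5% to 65.2%. Members had a median of 64.5 reads per library, and how this depth bears on the counts was not tested.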
